A study of Mus musculus with 4 samples.

Results

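The 10 genes described here encode enzymes that make serine from glucose and pass its carbon, and the carbon of threonine and glycine, into folate metabolism: Phgdh, Psat1, Psph, Shmt1, Shmt2, Mthfd1, Mthfd2, Mthfd1l, Tdh and Gldc. They were chosen by name, through their Ensembl identifiers, and all 10 were found among the 14533 genes of the expression table and passed its filter on low values, which left 13005 tested genes. The RNA libraries were made from mouse embryonic stem cells (ESCs) in 2 culture conditions, with 2 libraries each. Serum ESCs were kept with fetal calf serum and LIF, and 2i ESCs in serum-free Ndiff 227 medium with LIF, PD0325901, which inhibits the kinase MEK, and CHIR99021, which inhibits the kinase GSK3. Cells of both conditions had been adapted for over 20 days. The sample labels place all libraries in late G1-phase and the series description in early G1-phase, so the stage rests on the sample labels. The cells were sorted by fluorescent cell-cycle (FUCCI) reporters, and the labels name no cell line, genotype or clone. Values are normalized counts, that is, reads per gene divided by a size factor for each library. The labels do not tie the replicates to separate cultures, although the series description calls them biological, so p-values measure the spread between these libraries.

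Serine is built from the glycolytic intermediate 3-phosphoglycerate by Phgdh, Psat1 and Psph, acting in that order. Shmt1 in the cytosol and Shmt2 in mitochondria then split serine into glycine and a carbon unit carried by tetrahydrofolate, and Mthfd1, Mthfd2 and Mthfd1l change the oxidation state of that unit and release or take up formate, which feeds purine and thymidylate synthesis. Threonine dehydrogenase, Tdh, is known for its high activity in mouse ESCs, which depend on threonine in their medium. It works with Gcat to turn threonine into glycine and acetyl-CoA, and Gldc, with Amt, Gcsh and Dld, breaks glycine down in the glycine cleavage system and yields a further carbon unit.

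The promoter of a gene is a place, though not the only possible place, where factors known to act on this pathway can bind. RefSeq sequences (build GRCm38.p6) from 250 bases before to 50 bases after the annotated start were held for 9 of the 10 genes, with 2 promoters for Psat1 and none for Tdh. Shown are Shmt2, Mthfd1 and Gldc, the genes with a promoter entry for which both serum libraries lay above both 2i libraries, and Phgdh, the gene with the lowest fold change and the only motif match. Capitals mark CG pairs and, in Phgdh, also the letters TATAAA. In the order given, the windows are chr10:127522395-127522694 on the minus strand, chr12:76254982-76255281 on the plus strand, chr19:30175392-30175691 on the minus strand and chr3:98339920-98340219 on the minus strand.
Shmt2: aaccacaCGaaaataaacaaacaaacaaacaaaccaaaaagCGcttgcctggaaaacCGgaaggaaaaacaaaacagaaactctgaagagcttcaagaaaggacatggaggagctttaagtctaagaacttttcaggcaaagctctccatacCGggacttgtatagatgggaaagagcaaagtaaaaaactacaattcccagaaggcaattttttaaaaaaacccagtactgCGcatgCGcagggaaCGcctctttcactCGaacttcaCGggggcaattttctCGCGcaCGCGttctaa
Mthfd1: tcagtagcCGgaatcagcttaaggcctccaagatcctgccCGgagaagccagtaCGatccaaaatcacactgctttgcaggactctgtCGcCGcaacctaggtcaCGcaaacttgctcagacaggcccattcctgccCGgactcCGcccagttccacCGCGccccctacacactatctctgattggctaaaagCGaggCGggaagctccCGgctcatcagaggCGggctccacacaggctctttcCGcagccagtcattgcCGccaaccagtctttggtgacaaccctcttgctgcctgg
Gldc: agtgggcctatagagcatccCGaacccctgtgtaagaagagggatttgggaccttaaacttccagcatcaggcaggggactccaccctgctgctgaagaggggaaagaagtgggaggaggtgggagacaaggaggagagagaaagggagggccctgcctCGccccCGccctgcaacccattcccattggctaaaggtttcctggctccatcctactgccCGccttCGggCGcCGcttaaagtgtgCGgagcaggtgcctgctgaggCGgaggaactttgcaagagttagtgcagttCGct
Phgdh: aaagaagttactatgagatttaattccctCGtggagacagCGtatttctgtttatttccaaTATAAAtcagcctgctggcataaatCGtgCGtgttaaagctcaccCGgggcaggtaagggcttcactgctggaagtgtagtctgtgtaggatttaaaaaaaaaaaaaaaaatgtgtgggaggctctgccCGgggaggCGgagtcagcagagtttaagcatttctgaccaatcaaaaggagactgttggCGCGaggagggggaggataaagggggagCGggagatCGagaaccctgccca
CG pairs numbered 13 in Shmt2, 16 in Mthfd1, 10 in Gldc and 11 in Phgdh, and over the 10 member promoters from 8 in Mthfd1l to 30 in one of the Psat1 promoters, against a median of 7 over 32851 promoters. GC content ran from 42.7% in Shmt2 to 66.7% in Psat1, against a median of 52.7%. Both strands were searched for letters that known factors bind. The E-box of MYC, CACGTG, stood in 7.15% of all promoters, the ATF4 element TGATGNAAN in 3.95%, and at least 1 of the 4 E2F words TTTCCCGC, TTTCGCGC, TTTGCCGC and TTTGGCGC in 2.26%. None of these stood in any of the 10 member promoters, which, at such low shares, does not set them apart from other promoters. TATAAA stood in 13.6% of all promoters and in 1 member promoter, that of Phgdh, where it began 189 bases before the start.

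The libraries held 18939401 to 26570098 whole reads. From 46.9% of the reads, in serum replicate 1, to 76.3%, in serum replicate 2, came from protein-coding genes, and the 10 most abundant genes took 50.6% of serum replicate 1 and 17.5% to 34.7% of the other libraries. The first principal component, with 54.0% of the variance, set the replicates numbered 1 apart from those numbered 2, and the second, with 30.4%, set serum apart from 2i. ESC markers were present in all libraries, with a summed level of 40526 and 49118 in serum, against 39890 and 52850 in 2i over 6 of 6 genes. Of 7 primitive endoderm markers, 4 had values, none of them at 0, which summed to 72.0 and 109 in serum, against 332 and 256 in 2i. Of 6 fibroblast markers, 2 had values, none at 0, which summed to 230.1 and 193 in serum, against 199 and 58.2 in 2i. The endoderm sum moved with the condition, and its part in the results below was not tested. Gata4, Gata6 and Sox17 were higher in both 2i libraries, whereas Pdgfra overlapped, at 47.0 and 41.8 in serum, against 60.2 and 27.2 in 2i. Of the fibroblast markers, Thy1 was lower in both 2i libraries and Col1a1 overlapped. In these bulk samples, fewer cells with a transcript and less of it per cell cannot be told apart.

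No gene of the set passed the test between serum and 2i. With limma across the table, 0.0154% of all tested genes passed (an adjusted p under 0.05 and at least 2-fold), namely 2 U1 small nuclear RNA genes higher in 2i, and 0 of the 10 did. At an unadjusted p under 0.05 from this limma fit and 2-fold, 5.97% of all tested genes differed, again with 0 of the 10. DESeq2 on the whole reads called 1.93% of genes, and limma with the replicate number as a block 1.56%, with 0 of the 10 under either. With edgeR, 0 of all tested genes were called, and so 0 of the 10. Both serum libraries lay above both 2i libraries for 4 of the 10, against 20.5% of all tested genes, and both lay below for 0, against 19.4%. The 4 were Tdh, Gldc, Shmt2 and Mthfd1. Among the 3208 tested genes that averaged 1000 normalized counts or more, a level more like that of the set, 1019 lay above and 343 below. The 95% interval of every one of the 10 genes held 0 and also a 2-fold difference. Whether the levels of a gene were equal within 2-fold was not tested. With 2 libraries against 2, an exact two-sided permutation test cannot give a p below 0.333 for any single gene.

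**Figure D1:**
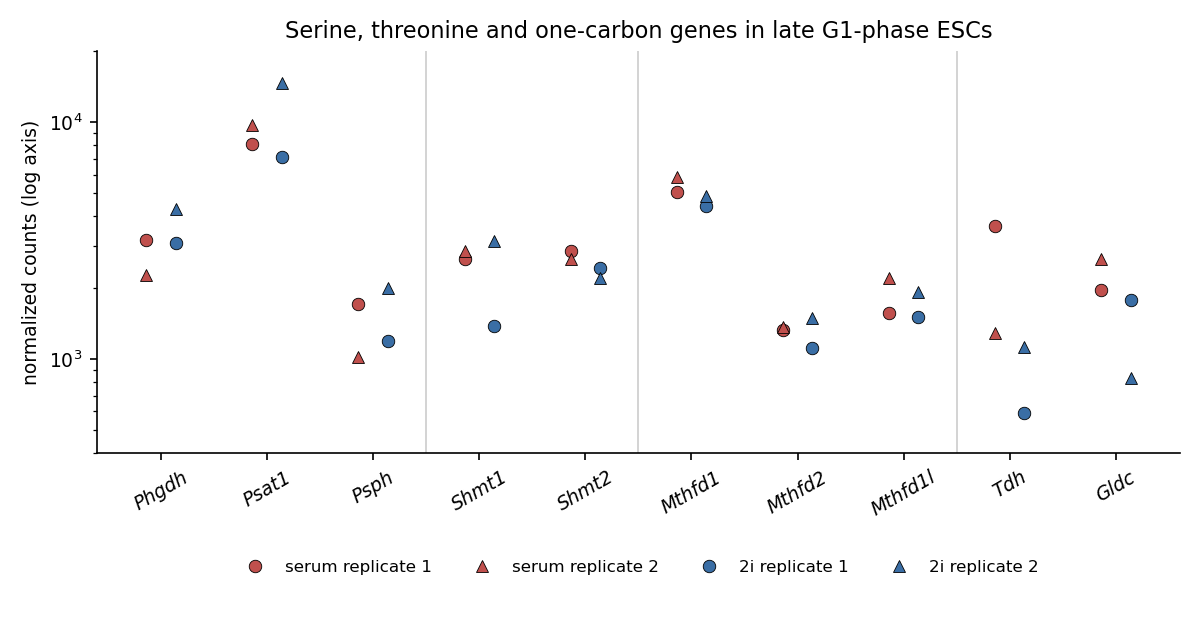
Normalized counts (log axis) of the 10 genes in each of the 4 libraries, ordered by role, with serum in red, 2i in blue, circles for replicate 1 and triangles for replicate 2. Tdh and Gldc show the widest scatter, with the lowest value in a 2i library for both, while Shmt2, Mthfd1, Mthfd2 and Mthfd1l stay within 1.5-fold over all libraries.

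The 3 genes of serine synthesis had fitted differences below 0, that is, lower in serum, none past the test and each with overlapping libraries. Positions of genes are given in build mm9. Phgdh (ENSMUSG00000053398, chr3:98117093-98143913, minus strand), the enzyme of the first step, had 3179 and 2258 normalized counts in serum replicates 1 and 2, against 3099 and 4288 in 2i replicates 1 and 2. The highest library was 2i replicate 2 and the lowest serum replicate 2, with the replicates numbered 1 close to each other in between. The log2 fold change, serum over 2i on the log2(normalized count + 1) scale, was -0.44 with a standard error of 0.47 (95% interval -1.58 to 0.69, adjusted p = 0.827). Of the 1904 distinct 43-base words in Phgdh transcripts, the read length of the study, 989 also occur in the pseudogene Gm7901 and only 43.8% are its own. Part of its value may thus rest on how reads with shared words were assigned, which was not tested. Gm7901 had 0 rows in the expression table. Psat1 (ENSMUSG00000024640, chr19:15979168-16021827, minus strand), the aminotransferase that follows, had 8057 and 9742 in serum, against 7127 and 14623 in 2i. The 2i libraries thus enclosed the serum libraries on both sides, and the log2 fold change was -0.20 (SE 0.58, interval -1.59 to 1.18, adjusted p = 0.941). Psph (ENSMUSG00000029446, chr5:130271434-130293129, minus strand), the phosphatase of the last step, had 1699.9 and 1018 in serum, against 1191 and 1997 in 2i, with a log2 fold change of -0.23 (SE 0.51, adjusted p = 0.926). The replicates differed by 0.74 in serum and by -0.75 in 2i on the log2 scale (replicate 1 minus replicate 2), each more than the conditions did. Summed over the 3 genes, serum gave 12936 and 13018 and 2i 11416 and 20909, so 2i replicate 2 alone stood high.

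The cytosolic and mitochondrial serine hydroxymethyltransferases differed in how steady they were. Cytosolic Shmt1 (ENSMUSG00000020534, chr11:60601606-60625220, minus strand) had 2631 and 2863 normalized counts in serum, against 1378 and 3131 in 2i. Both the highest and the lowest library were of 2i, and the log2 fold change was 0.40 (SE 0.54, interval -0.89 to 1.70, adjusted p = 0.869). It became -0.19 when 2i replicate 1 was left out and 0.99 when 2i replicate 2 was. Mitochondrial Shmt2 (ENSMUSG00000025403, chr10:126954195-126959491, minus strand) had 2842 and 2632 in serum, against 2411 and 2206 in 2i. Both serum libraries lay above both 2i libraries, with replicates that differed by 0.11 in serum and 0.13 in 2i, less than the log2 fold change of 0.25 (SE 0.43, interval -0.78 to 1.27, adjusted p = 0.902). The standard error comes from a spread that limma shares across genes of like level, which is wider than the scatter of Shmt2 itself. The highest library of Shmt2 was 1.29-fold above the lowest, a spread that only 2.71% of all tested genes matched or undercut.

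The folate enzymes were the steadiest group of the set. Mthfd1 (ENSMUSG00000021048, chr12:77356219-77420807, plus strand), the cytosolic enzyme with 3 activities, had 5074 and 5883 normalized counts in serum, against 4418 and 4891 in 2i. Serum lay above 2i in each of the 4 pairings of libraries, by 0.053 to 0.41 on the log2 scale, and the fitted log2 fold change was 0.23 (SE 0.46, interval -0.87 to 1.33, adjusted p = 0.916). Mthfd2 (ENSMUSG00000005667, chr6:83255685-83267600, minus strand), the mitochondrial dehydrogenase and cyclohydrolase, had 1329 and 1369.5 in serum, a near-equal pair, and 1113 and 1483 in 2i, which enclosed it. Its log2 fold change was 0.07 (SE 0.43, interval -0.96 to 1.10, adjusted p = 0.976). Mthfd1l (ENSMUSG00000040675, chr10:6179460-6373423, minus strand), the mitochondrial enzyme that releases formate, had 1565 and 2199.6 in serum, against 1498 and 1919 in 2i, with the replicate numbered 2 higher in both conditions. The log2 fold change was 0.13 (SE 0.45, interval -0.95 to 1.21, adjusted p = 0.955). From the highest to the lowest library, Mthfd1 and Mthfd2 each spanned 1.33-fold and Mthfd1l 1.47-fold, and the shares of tested genes at or below these spans were 3.69%, 3.71% and 7.86%. Among the genes with a mean of at least 1000, the shares were 3.18%, 3.24% and 7.67%. The median span was 2.58-fold over all tested genes and 1.93-fold over the 10.

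The threonine and glycine genes had the 2 largest differences of the set, both higher in serum, and also the widest scatter. Tdh (ENSMUSG00000021953, chr14:64111184-64127929, minus strand) had 3627 and 1292 normalized counts in serum, against 592 and 1125 in 2i. Serum replicate 1 stood far above the rest, whereas serum replicate 2 exceeded 2i replicate 2 by only 0.20 on the log2 scale. The means were 2459 ± 1651 (SD, n = 2) in serum and 858 ± 377 (SD, n = 2) in 2i. The log2 fold change was 1.41 with a standard error of 0.64, a fold of 2.65 with a 95% interval of 0.909 to 7.73. Its limma p was 0.0677 unadjusted and 0.753 adjusted over all tested genes. DESeq2 gave 1.51 with a p of 0.0341 unadjusted and 0.325 adjusted. Limma with the replicate block gave a p of 0.0181 unadjusted and 0.309 adjusted. The share of all tested genes with so low an unadjusted p in these fits was not counted. A difference of at least 2-fold between the fitted means, without a test, was found in 25.8% of all tested genes and in 1 of the 10, Tdh. Without serum replicate 1, the library with the lowest protein-coding share, its log2 fold change was 0.66, and without serum replicate 2 it was 2.15. Leaving out 2i replicate 1 gave 0.94, and leaving out 2i replicate 2 gave 1.87. Of the 1961 words in Tdh transcripts, 329 also occur in the pseudogene Gm13929, and 83.2% are its own.

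Gldc (ENSMUSG00000024827, chr19:30172939-30249908, minus strand), the glycine decarboxylase, had 1959 and 2632 normalized counts in serum, against 1771 and 831 in 2i. The groups did not overlap, but serum replicate 1 and 2i replicate 1 were only 0.15 apart on the log2 scale, and 2i replicate 2 alone was low. The means were 2296 ± 476 (SD, n = 2) in serum and 1301 ± 664 (SD, n = 2) in 2i. The log2 fold change was 0.90 with a standard error of 0.53, a fold of 1.87 with an interval of 0.774 to 4.52 (adjusted p = 0.753). It became 0.36 when 2i replicate 2 was left out, and was 1.45 when 2i replicate 1 was. The libraries that set these genes apart were thus not the same: Tdh was lowest in 2i replicate 1 and Gldc in 2i replicate 2. Their sum was 5586 and 3924 in serum, against 2363 and 1957 in 2i. It could not overlap, because the libraries of neither gene did, so it adds no further result.

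**Figure D2:**
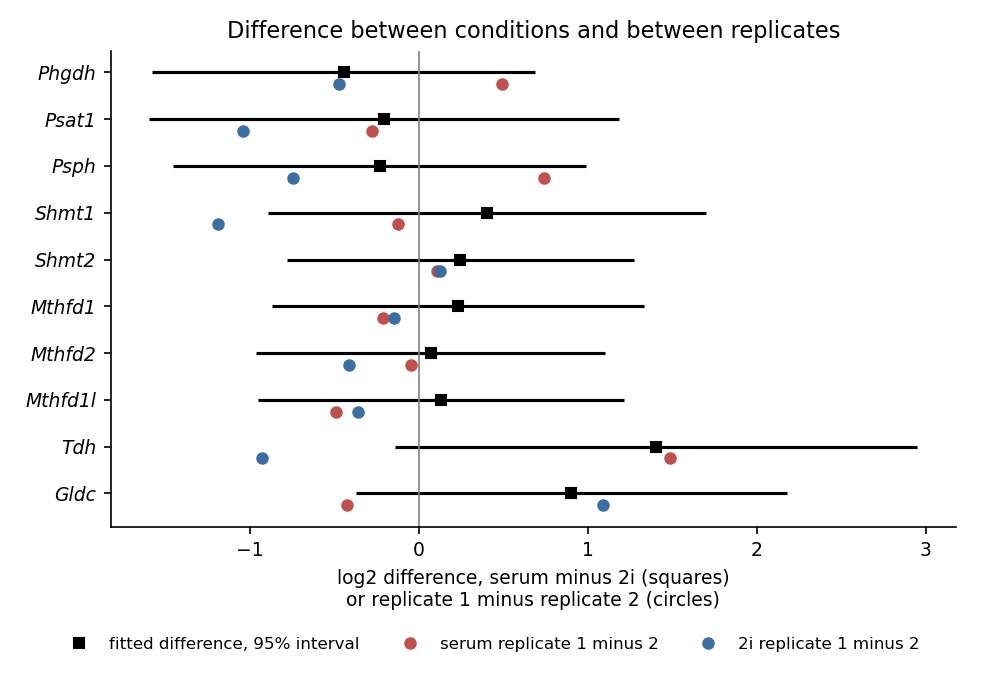
Log2 differences for the 10 genes: black squares give the fitted difference of serum minus 2i with its 95% interval, and circles give replicate 1 minus replicate 2 within serum (red) and within 2i (blue). Every interval includes 0, and for 8 of the 10 genes at least 1 replicate circle lies farther from 0 than the square.

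For 8 of the 10 genes, all but Shmt2 and Mthfd1, the difference between replicates of at least 1 condition was larger than the fitted difference between conditions, and the same held for 73.7% of all tested genes. The median log2 fold change of the 10 was 0.18, with 7 positive and 3 negative values, against 0.0047 over all tested genes and 0.29 over genes with a mean of at least 1000. The median size of the difference, whatever its sign, was 0.24 for the 10 and 0.55 for all tested genes. Median differences between replicates were 0.35 in serum and 0.61 in 2i for the 10, against 0.53 and 0.76 for all tested genes. By role, the median log2 fold change was -0.23 for serine synthesis, 0.32 for the hydroxymethyltransferases, 0.13 for the folate enzymes and 1.15 for Tdh and Gldc.

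Levels between genes were compared per kilobase of exon sequence. Psat1 was highest, at 2324 ± 785 normalized counts per kilobase (SD over the 4 libraries), and was above Mthfd1, the next, in 4 of 4 libraries. Mthfd1 followed at 1524 ± 184, Phgdh at 1289.6 ± 335, Shmt2 at 1106 ± 121 and Psph at 812 ± 249. Below them came Shmt1 at 644 ± 200, Tdh at 634 ± 515, Mthfd2 at 486 ± 56.9, Gldc at 479 ± 198 and Mthfd1l at 405 ± 73.7. The ranges of every pair of neighbours overlapped. Apart from the first pair, the gene with the higher mean led in 3 of 4 libraries, except that Tdh exceeded Mthfd2 in 1 of 4 and Mthfd2 exceeded Gldc in 1 of 4, so the means of these pairs ran against most libraries. All 10 were among the well-expressed genes, between the 70.5 and 97.1 percentiles of tested genes with an annotated length in every library. With the longest transcript in place of all exons, Mthfd1 and Phgdh, Shmt1 and Tdh, and Gldc and Mthfd1l changed places.

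Ratios between enzymes of the same route do not depend on the size factor of a library. Among the folate enzymes all 3 ratios spanned 1.27-fold to 1.36-fold over the libraries. Mthfd1l stood at 0.231 and 0.280 of Mthfd1 per kilobase in serum and at 0.254 and 0.294 in 2i, and Mthfd2 at 0.320 and 0.284 of Mthfd1 in serum, against 0.308 and 0.370 in 2i. Mthfd2 was 1.38 and 1.01 times Mthfd1l in serum, against 1.21 and 1.26 times in 2i. The libraries overlapped in all 3. In serine synthesis, Psph was 0.731 and 0.616 of Phgdh in serum, against 0.525 and 0.637 in 2i, and Psat1 was 1.48 and 2.52 times Phgdh in serum, against 1.34 and 1.99 times in 2i, with the replicate numbered 2 higher in both conditions. The mitochondrial enzyme Shmt2 exceeded cytosolic Shmt1 in all libraries, 1.84 and 1.57 times in serum, against 2.98 and 1.20 times in 2i. With the longest transcript as length, the ratio of Shmt2 to Shmt1 in 2i replicate 2 was 0.883.

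Tdh against Gcat, which takes up the product of Tdh, was the ratio that differed most between conditions. It was 6.21 and 4.02 in serum, against 1.30 and 0.739 in 2i, a 5.10-fold difference of the geometric means, with libraries that did not overlap. The log2 ratio had an SD of 0.44 in serum and 0.58 in 2i, and the log2 difference was 2.35. Gcat itself had 859 and 473 normalized counts in serum, against 669.6 and 2243 in 2i, a log2 fold change of -0.94 (SE 0.68, adjusted p = 0.763), and its libraries overlapped. Without 2i replicate 2 that fold change was -0.07, so it rested on this library. The ratio of Tdh to Gldc was 2.66 and 0.705 in serum, against 0.480 and 1.94 in 2i, and showed no order by condition. Of the 8 ratios computed, Tdh to Gcat was the only one whose libraries did not overlap, and the ratios were not tested. Among single tested genes, 20.5% had both serum libraries above both 2i libraries and 19.4% had both below. The lack of overlap in 1 ratio is thus a description. With each library left out in turn, the log2 difference of Tdh to Gcat ran from 1.94, without 2i replicate 2, to 2.76, without 2i replicate 1.

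**Figure D3:**
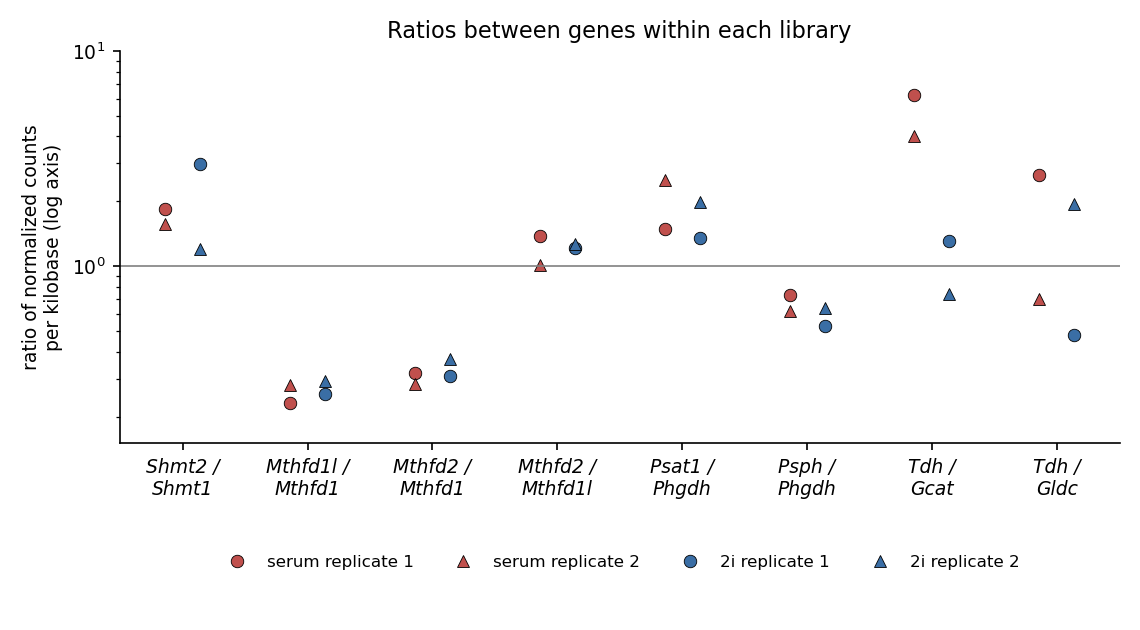
Ratios of normalized counts per kilobase (log axis) between enzymes of the same route in each of the 4 libraries, with serum in red and 2i in blue, circles for replicate 1 and triangles for replicate 2, and a line at equal levels. Tdh to Gcat lies at 4.02 and 6.21 in serum and at 0.739 and 1.30 in 2i, while the other ratios overlap between conditions.

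Around these 10 enzymes, 41 further genes of the pathway were listed, of which 40 were tested. With limma 0 were called. An unadjusted limma p under 0.05 with a 2-fold difference was found for 4 of the 40, against 5.97% of all tested genes. They were Slc38a2 and Myc, higher in serum, and Aldh1l1 and Cbs, higher in 2i. Both serum libraries lay above both 2i libraries for 8 of the 40 and below for 7, shares near the 20.5% and 19.4% of all tested genes, so the non-overlap of a single gene named below is a description. The median log2 fold change was 0.12. None of the partners of Gldc in glycine cleavage passed the test. Amt, the aminomethyltransferase, had 948 and 779 normalized counts in serum, against 1152 and 2664 in 2i, with both serum libraries lower and a log2 fold change of -1.03 (SE 0.54, adjusted p = 0.753). Dld, the dehydrogenase that several mitochondrial complexes share, had 1202 and 2757 in serum, against 1180.4 and 1174 in 2i, both serum libraries being higher (log2 fold change 0.63). Gcsh, the lipoate carrier, had 1502 and 2371 in serum, against 756 and 2945 in 2i, so that 2i enclosed serum (log2 fold change 0.34).

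Of 13 other folate enzymes and carriers, the lowest fold change was that of Aldh1l1, the cytosolic enzyme that burns off formyl groups to carbon dioxide. It had 249 and 43.7 normalized counts in serum, against 664 and 1354 in 2i, a log2 fold change of -3.17 (SE 0.87). Its limma p was 0.00987 unadjusted and 0.753 adjusted, and with the replicate block the adjusted p was 0.00609, but 0.186 when the block was joined with a correction for GC content and length. Leaving out serum replicate 2 gave -1.92, and leaving out serum replicate 1 gave -4.41. The highest was that of Slc25a32, the carrier of folate into mitochondria, with 303 and 619 in serum, against 161 and 405 in 2i (log2 fold change 0.76), where the libraries overlapped. Mthfd2l, the paralog of Mthfd2, was near the floor at 20.0 and 38.9 in serum, against 31.1 and 13.6 in 2i and was not tested. Tyms, which makes thymidylate, lay above 2i in both serum libraries (log2 fold change 0.68), and the carrier Slc46a1 below (-1.0). Tyms and Slc46a1 were picked after their values were seen.

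In the methionine cycle and transsulfuration list of 8, the extremes were Mat2a, which makes the methyl donor S-adenosylmethionine, and Cbs, which draws on serine. Mat2a had 2485 and 4937 normalized counts in serum, against 734 and 2837 in 2i, with overlap and a log2 fold change of 1.28 (SE 0.74), which became 0.30 when 2i replicate 1 was left out and 2.25 when 2i replicate 2 was. Cbs had 191 and 186 in serum, against 610.4 and 512 in 2i, with close replicates and a log2 fold change of -1.56 (SE 0.45). Its limma adjusted p was 0.753, and DESeq2 called it with an adjusted p of 0.0339. Mtr, picked after its values were seen, lay above 2i in both serum libraries (0.66). All 6 genes of purine synthesis, which consumes formyl groups, had fold changes above 0, with a median of 0.44, and none passed the test. Of the 3208 genes with a mean of at least 1000, 2073 were also above 0, with a median of 0.29. They ranged from 0.05 for Adsl to 0.82 for Ppat, the first enzyme, at 3469 and 5798 in serum, against 1625 and 3979 in 2i. Ppat was 0.17 without 2i replicate 1, and the sign of Adsl changed with the scaling. Pfas and Atic, picked after their values were seen, lay above 2i in both serum libraries.

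Among 6 amino acid transporters, Slc38a2, which carries small neutral amino acids, had 2466 and 4390.5 normalized counts in serum, against 1377 and 1267 in 2i, without overlap. Its log2 fold change was 1.32 with a standard error of 0.48, and the adjusted p from limma was 0.753. Slc1a4, a carrier of serine and alanine, had 566 and 369 in serum, against 1363 and 581 in 2i, with both serum libraries lower (log2 fold change -0.96). Slc6a9, a glycine carrier picked after its values were seen, was also lower in both (-0.67). Of 3 transcription factors known to act on these genes, Myc had 131 and 657 in serum, against 7.27 and 4.85 in 2i, a log2 fold change of 5.41 (SE 1.17). The 2i values of Myc rested on 7 and 5 reads, near the floor. Its limma adjusted p was 0.753, whereas the replicate block gave 0.00761, the block with GC content and length correction 0.111, and DESeq2 called it too. Atf4 had 3891 and 2799 in serum, against 4571 and 5276 in 2i, both serum libraries being lower (log2 fold change -0.57, adjusted p = 0.774). Mycn had 1053 and 894 in serum, against 1205 and 573 in 2i, with overlap (log2 fold change 0.22, limma adjusted p = 0.929). DESeq2 thus called 2 of the 40 genes, Myc and Cbs, against 1.93% of all tested genes. The block called 2, Myc and Aldh1l1, against 1.56%. Neither called any of the 10 enzymes, which at such low shares does not set them apart from other genes.

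**Figure D4:**
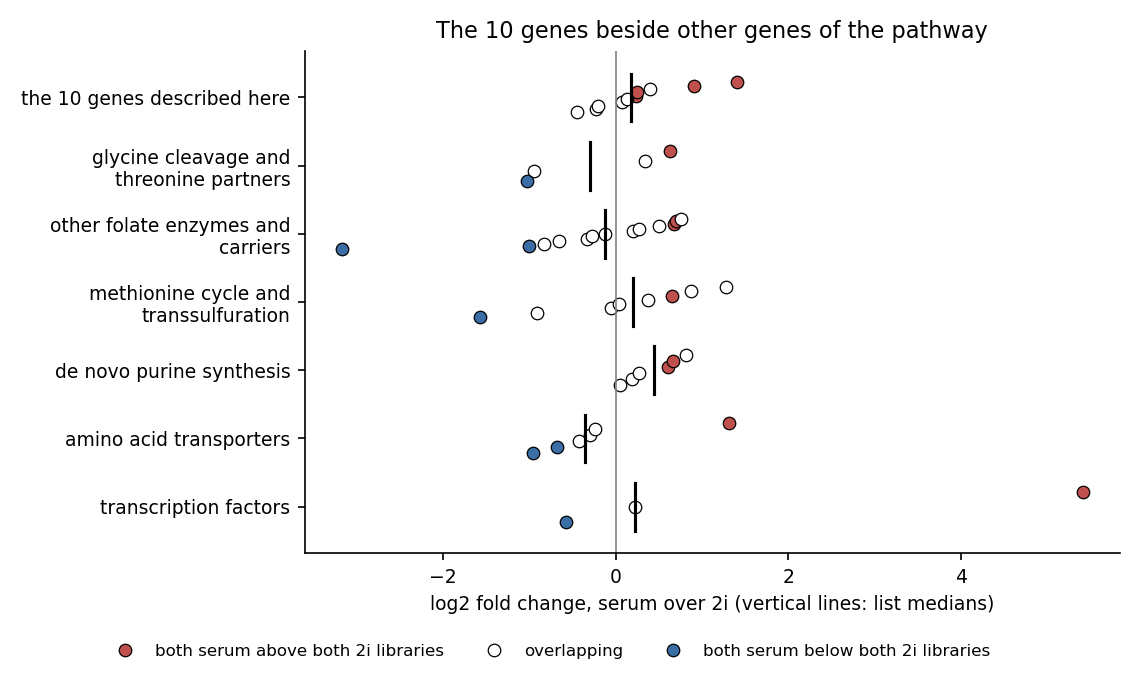
Log2 fold changes, serum over 2i, of the 10 genes in the top row and of the 40 tested further genes of the pathway by list, with vertical lines at list medians. Red points have both serum libraries above both 2i libraries, blue points both below, and open points overlap; the 10 genes lie between -0.44 and 1.41, with 4 red and no blue points.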

How the data were processed

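Total RNA of sorted ESCs was depleted of ribosomal RNA, primed at random positions and sequenced in single-end reads of 43 bases. The authors aligned the reads with Bowtie to mouse build mm9, as the submitters' processing notes also state, divided them among transcripts with MMSeq and kept genes with at least 50 reads in either condition. The deposited values are a signal: counts per gene that DESeq2's size factor for the library had divided. Within a tolerance of 0.1 read, 100% of them came out as whole reads in each library. No strand setting is given in the sources used here. Gene names, positions and lengths came from GENCODE vM1 on mm9, which held 14462 of 14533 genes.

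The main test was limma (3.58.1, in R 4.3.3) applied to log2(normalized count + 1) values with a variance trend, no replicate term, a mean of at least 50 in either group and Benjamini-Hochberg adjustment over all 13005 tested genes. A call needed an adjusted p under 0.05 and a 2-fold difference. The fold change on this scale understates the change of low genes. The study tested counts with DESeq2. Since the deposited values are scaled, the count tests edgeR (4.0.16) and DESeq2 (1.42.0) on the recovered whole reads were alternatives, beside other pseudocounts, filters and scalings, a replicate block, leaving out each library, and a correction for GC content and length (mgcv 1.9.3). A median was computed over a list with no set test. The code was tested on simulated data.

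The members and lists were chosen with earlier results of these data known. Named were all 10 members, the highest and lowest fold change of each further list, called genes, Mthfd2l, Gcat and the other glycine cleavage genes. Mycn was added to complete the list of transcription factors. Words of 43 bases shared with other transcripts were counted in GENCODE vM1 transcripts, and the pseudogenes named were not analysed here. Promoters came from RefSeq on GRCm38.p6, and none of their coordinates were joined to mm9.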

Additional observations from a re-analysis of the deposited data

How the results depend on the processing

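None of the 10 genes was called under any of the 14 other settings. The lowest adjusted p of a member was 0.248, for Tdh in limma with GC content and length correction and the replicate block. That outcome says little about the 10, because few genes were called at all. Of all tested genes, edgeR called 0, and the largest share was 1.93%, in DESeq2. Mthfd1, Phgdh, Shmt2, Tdh and Gldc kept their sign under these settings and with each of the 4 libraries left out. On the log2 scale, Mthfd1 lay between 0.10 and 0.41, Phgdh between -0.69 and -0.013 and Shmt2 between 0.10 and 0.71. Tdh lay between 0.66 and 2.15 and Gldc between 0.36 and 1.45. GC content and length correction gave the -0.013 of Phgdh, practically no difference. Psph turned to 0.054 under GC content and length correction, with or without the replicate block. Mthfd2 turned to -0.058 under upper quartile scaling and to -0.10 under quantile normalization, Mthfd1l to -0.046 under quantile normalization. Adsl turned to -0.079 under upper quartile scaling, -0.11 under quantile normalization, -0.11 in edgeR, -0.096 in DESeq2 and -0.026 under GC content and length correction, with or without the replicate block. Upper quartile scaling moved the median of all genes to -0.12 and a mean of at least 200 to 0.12. The causes were not tested.

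With each library left out in turn, Psat1 ranged from -0.72 to 0.31, Psph from -0.60 to 0.14, Shmt1 from -0.19 to 0.99, Mthfd2 from -0.14 to 0.28, Mthfd1l from -0.12 to 0.38, Gcsh from -0.64 to 1.32 and Adsl from -0.58 to 0.68. The member median ranged from -0.093, without 2i replicate 1, to 0.31, without 2i replicate 2. Members with all serum libraries above 2i numbered 4 to 8, the most without 2i replicate 2, and members below 0 to 5, the most without 2i replicate 1 (2 without serum replicate 1). With 1 group at a single library, 39.2% of all tested genes lay above without 2i replicate 2. Below lay 38.5% without 2i replicate 1 and 32.9% without serum replicate 1. Aldh1l1 ranged from -4.41 to -1.92, Myc from 4.25 to 6.56, Gcat from -1.81 to -0.07, Amt from -1.63 to -0.42, Dld from 0.03 to 1.23, Slc25a32 from 0.10 to 1.42, Mat2a from 0.30 to 2.25, Ppat from 0.17 to 1.46 and Slc1a4 from -1.57 to -0.34. All genes called higher in 2i ranged from 0 to 0, against 2 in full. The lone library was assumed to vary like the others. Quantile normalization left 2 members above and 0 below, and upper quartile scaling 3 above and 1 below. The shares of all tested genes under these scalings were not computed, so the counts are a description.

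Over all tested genes, 0 were called higher in serum and 2 higher in 2i with limma. The replicate block gave 44 and 159, DESeq2 73 and 178. Higher in 2i were 4 with a mean of at least 200, 1 without the trend, 0 in edgeR and 0 under GC content and length correction. This correction with the replicate block gave 1 higher in serum and 3 higher in 2i. Of the other pathway genes, the replicate block called 2 and DESeq2 2, and the block with this correction 0. The replicate numbers are not stated to mark a shared batch. Differences between replicates in serum and in 2i correlated at 0.480 over all tested genes, and at 0.312 after GC content and length correction, but 2 pairs do not show that numbers pair samples. Depth was 570 to 15075 reads for a member in a library, so the spread between libraries, not counting, limits precision.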

Other observations

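Summed over the 10 genes, serum ESCs held 31963 and 31890.0 normalized counts and 2i ESCs 24596 and 36495, so both the lowest and the highest sum were of 2i. The 10 genes took 0.109% to 0.184% of all reads of a library and 0.189% to 0.278% of its protein-coding reads. The hydroxymethyltransferases summed to 5474 and 5496 in serum, against 3788 and 5337 in 2i, with both serum libraries above 2i but 2i replicate 2 close to them. Shmt1, which overlapped on its own, had its lowest value, 1378, in 2i replicate 1, the library with the lowest sum. Shmt2, which is part of this sum, already lay above on its own, so the sum is not a separate result. Of single tested genes, 20.5% lay above in this way, a share that is not a background for a sum of genes. The folate enzymes summed to 7967 and 9453 in serum, against 7029 and 8293 in 2i, which overlapped.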
